A study of Mus musculus with 17 samples.

Results

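Sulfiredoxin, thioredoxin, peroxiredoxin, quinone reductase, catalase and superoxide dismutase genes were followed in murine conventional dendritic cells (cDCs) that had met debris of dying tumor cells. The group holds 9 genes (Srxn1, Txnrd1, Txn1, Prdx1, Prdx6, Nqo1, Cat, Sod1 and Sod2) of the 31091 genes with an identifier in the count table. They were chosen by function from oxidative stress genes, with earlier results from all 6 groups of these same samples already known, the differences between debris and control medium among them. The differences of the members, between media or cell types, are therefore given as a description, with no test read from them. All 9 genes were found by their identifiers and all passed the filter on low counts in every comparison, with at least 120 counts in every sample.

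RNA was sequenced from 17 samples of splenic cDC1s and cDC2s, sorted after 6 h in medium taken from TC-1 cells, a C57BL/6 mouse lung epithelial tumor line. In the WT condition the medium came from live, unmodified TC-1 cells, in the BimS condition from TC-1-iBimS cells undergoing apoptosis, and in the RIPK3 condition from TC-1-iRIPK3 cells undergoing necroptosis. All 3 TC-1 cultures had been given cumate for 24 h, which switches on BimS or RIPK3 in the engineered lines. Each group had 3 samples, except cDC2s in the RIPK3 condition with 2. The donors were female C57BL/6JRj mice, bought at 8 weeks of age, that carried B16-FLT3L tumors to expand their cDCs, and spleens of at least 2 mice were pooled. Thus every group, controls included, came from tumor-bearing hosts, was cultured with GM-CSF, and met medium that was not centrifuged. The engineered lines are clonal, so the mode of death and the clone cannot be told apart. The labels do not say that replicates came from separate cultures or animals, and the p-values measure the spread between these samples.

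The libraries held 16095159 to 21645289 counts (median 18986002). Defining markers followed the labels, since 8 cDC1 genes (Clec9a and Xcr1 among them) summed to 1397 to 1725 CPM (counts per 1000000 counts of the library) in cDC1s and 98.8 to 132 CPM in cDC2s. Correspondingly, 6 cDC2 genes, such as Sirpa and Itgam, summed to 2.11 to 4.02 CPM in cDC1s and 285 to 373 CPM in cDC2s. Single markers moved with the media, since edgeR called 3 of the 8 cDC1 genes higher and 3 lower in cDC1s with BimS than with WT medium, and 2 and 3 with RIPK3. For instance, mean Irf8 was 309 CPM in WT, 184 in BimS and 176 in RIPK3, and mean Xcr1 was 152, 207 and 226 CPM. Of the 6 cDC2 genes, 1 was higher and 1 lower in cDC2s with BimS, and 1 and 3 with RIPK3, and mean Irf4 was 37.0, 16.5 and 13.0 CPM. Between RIPK3 and BimS, 2 of the 8 cDC1 genes were called lower with RIPK3 and 0 higher in cDC1s, and 0 of the 6 cDC2 genes were called in cDC2s. The part of these shifts in the members' values was not tested. Tumor epithelial markers (Krt8, Krt18, Epcam, Krt7 and Cldn4) summed to 0.971 to 2.68 CPM in every library, and edgeR called none of the 4 tested in cDC1s or the 2 tested in cDC2s between media. How strongly TC-1 cells express these markers was not analysed here, so a share of debris RNA in the members' counts was not tested. Fibroblast-type markers summed to 0.494 to 2.39 CPM, and lists for monocytes or neutrophils, B cells, T and NK cells and red cells each to at most 2.37 CPM. Of these lists, 1 gene was called between media, Cd3g, lower in cDC2s with BimS (1 to 3 counts per library, and 7 to 12 in WT). Plasmacytoid dendritic cell markers (4 genes) summed to 54.2 to 66.0 CPM in cDC1s and 173 to 216 CPM in cDC2s. Of these, Tcf4 was called lower in cDC1s with BimS and RIPK3 (group means 36.5 and 36.6 CPM, and 43.0 in WT) and Bst2 in cDC2s with RIPK3 (15.0 CPM, and 21.8 in WT), and their part in the members' values was not tested. A list of 7 macrophage markers summed to 572 to 688 CPM in WT and 5039 to 7005 CPM in debris samples of cDC1s, and to 119 to 186 and 1389 to 2745 CPM in cDC2s. Nearly all of this was Hmox1, which encodes heme oxygenase and is itself a stress gene, and it was called higher in each contrast with WT. Adgre1 had group means of 0.638 to 4.00 CPM, and C1qa, C1qb, C1qc, Vcam1 and Cd5l of at most 1.24 CPM. Of these other 6, C1qc was called lower in cDC1s with BimS (0.217 CPM, and 0.660 CPM in WT), and none in the other contrasts with WT. Between RIPK3 and BimS, 1 of the 7 macrophage genes was called higher with RIPK3 in cDC1s and 0 in cDC2s. Mean Hmox1 in cDC1s was 5142 CPM with BimS and 6710 CPM with RIPK3. In bulk samples such as these, a change in the share of expressing cells and a change in RNA per cell cannot be told apart.

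Cells remove peroxides with relays of thiol enzymes. Thioredoxin reductase 1 (Txnrd1) takes electrons from NADPH to keep thioredoxin 1 (Txn1) reduced, thioredoxin in turn regenerates peroxiredoxin 1 (Prdx1), and sulfiredoxin (Srxn1) rescues peroxiredoxins whose active cysteine has been overoxidized. Peroxiredoxin 6 (Prdx6) uses glutathione in place of thioredoxin, catalase (Cat) destroys hydrogen peroxide in peroxisomes, and the superoxide dismutases of the cytosol (Sod1) and the mitochondrion (Sod2) produce that hydrogen peroxide from superoxide. NAD(P)H quinone dehydrogenase 1 (Nqo1) reduces quinones to hydroquinones. Many genes of this system carry antioxidant response elements, the sites of the transcription factor NRF2, whose core resembles and can contain an AP-1 site.

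The start sites of the members are shown here to place these elements beside the genes, as a description of the sequence from which nothing is read about a factor. In windows from 250 bases before to 50 bases after the annotated start (GRCm39, GENCODE M39 canonical transcripts), the element core TGACNNNGC was searched on both strands. It occurred upstream of the start in 4 of 9 members, compared with 9.69% of 21770 protein-coding windows, or 12.5% when the bases after the start were included. The count depends on the annotated start. In RefSeq's windows of the same length (GRCm38.p6), 3 of the 8 members with an entry had an upstream match, compared with 11.5% of 27025 genes. Those of Txnrd1 and Prdx1 were the sites printed here, and that of Sod1, 56 bases before RefSeq's start, was another. The AP-1 motif TGANTCA occurred upstream of the start in Srxn1 and Prdx1, compared with 6.17% of those windows. Sequences run 5′ to 3′ in the direction of the gene, with the motif in capitals. For Txnrd1 the match lay 65 bases before the start at chr10:82694933-82694971 (plus strand), for Prdx1 78 bases before it at chr4:116542648-116542686 (plus strand), for Prdx6 63 bases before it at chr1:161079138-161079176 (minus strand) and for Sod1 95 bases before it at chr16:90017298-90017336 (plus strand). Srxn1 had its match to this element string 28 bases after the start, which is not printed, and AP-1 matches 102 and 45 bases before it, at chr2:151947327-151947363 and chr2:151947384-151947420 (plus strand). No other form of the element was searched for.
Txnrd1: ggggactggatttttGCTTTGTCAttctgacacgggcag
Prdx1: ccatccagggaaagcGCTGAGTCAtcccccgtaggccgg
Prdx6: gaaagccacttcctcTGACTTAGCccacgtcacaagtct
Sod1: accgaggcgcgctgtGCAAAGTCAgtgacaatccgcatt
Srxn1 AP-1, first: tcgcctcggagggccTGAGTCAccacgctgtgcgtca
Srxn1 AP-1, second: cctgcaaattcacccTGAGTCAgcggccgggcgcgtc
In Prdx1 the element match also holds an AP-1 match, and another lay 182 bases before the start. The windows of Txn1, Nqo1, Cat and Sod2 held neither string of letters, which says only that these letters are absent from these windows.

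All 9 members were higher in both debris conditions than in the WT condition, in cDC1s and in cDC2s, and in each of these 4 contrasts the debris samples of every member lay above its WT samples. That held for 15.6% and 14.9% of all genes tested with BimS and RIPK3 in cDC1s, and for 11.3% and 17.7% in cDC2s. The contrasts of one cell type share the same WT samples. By edgeR's quasi-likelihood test, 9 of 9 members were called higher in each contrast, where 7.31% of all genes tested were called higher and 5.89% lower for BimS in cDC1s, and 8.34% and 8.19% for RIPK3 in cDC1s. In cDC2s the corresponding shares were 3.8% and 3.21% for BimS, and 3.93% and 3.28% for RIPK3. Nothing is read from these counts, since the choice of members used the contrasts. The median log2 fold change of the members was 0.81 for BimS and 0.89 for RIPK3 in cDC1s, and 0.77 and 0.86 in cDC2s. Over all genes tested it was 0.00172, -0.00565, -0.0185 and -0.0216, respectively. Levels below are in CPM after TMM scaling over the 17 samples, and they are not compared between genes.

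**Figure D1:**
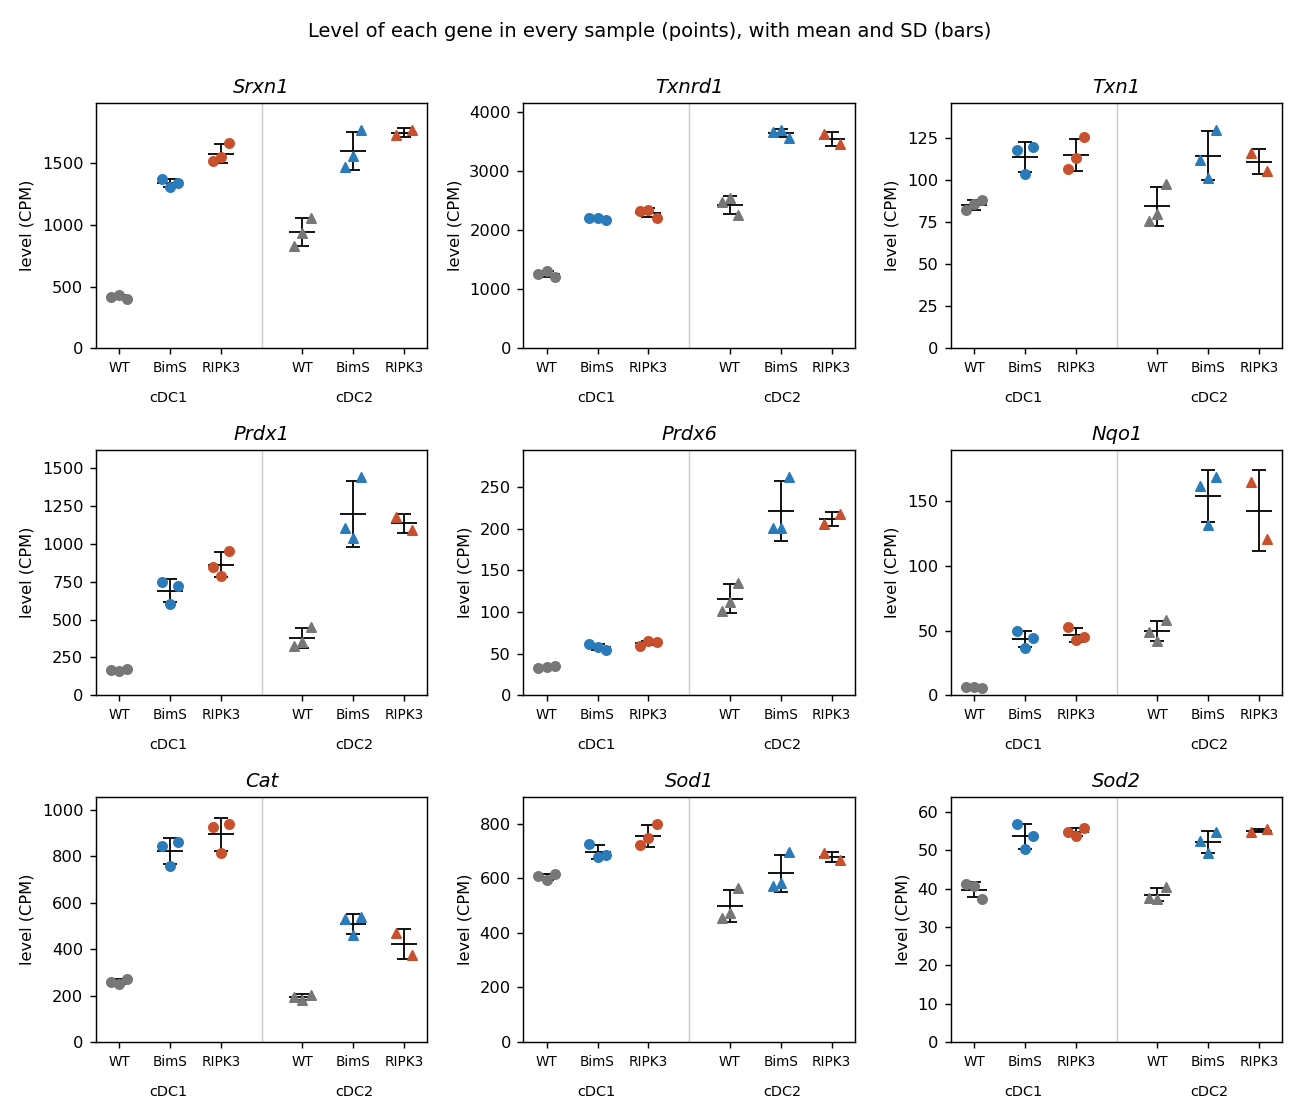
Level in CPM (vertical axes starting at 0) of each of the 9 genes in every sample, for cDC1s (circles) and cDC2s (triangles) in WT (gray), BimS (blue) and RIPK3 (red) medium; bars give the mean and SD of 3 samples, or of 2 for cDC2s in RIPK3 medium. WT samples lie below the debris samples of the same cell type in every panel, and Nqo1 in cDC1s starts from 5.88 to 6.53 CPM.

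Srxn1 (ENSMUSG00000032802, chr2:151947436-151957687, GRCm39), the sulfiredoxin gene, was measured at 417, 433 and 403 CPM in the cDC1 WT samples, 1375, 1309 and 1338 CPM in BimS, and 1523, 1550 and 1667 CPM in RIPK3. In cDC2s the levels were 827, 936 and 1055 CPM in WT, 1469, 1561 and 1774 CPM in BimS, and 1727 and 1774 CPM in RIPK3. The 3 cDC1 groups were separate from each other, while the cDC2 debris groups overlapped with each other, and cDC2s in BimS medium overlapped with cDC1s in RIPK3 medium. The log2 fold change over WT was 1.68 ± 0.0471 (SE) for BimS and 1.92 ± 0.0474 for RIPK3 in cDC1s, which is 3.21-fold and 3.78-fold. For cDC2s it was 0.77 ± 0.0907 and 0.89 ± 0.0995, or 1.70-fold and 1.85-fold.

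Txnrd1 (ENSMUSG00000020250, chr10:82669785-82733546), which encodes the cytosolic thioredoxin reductase, had 1250, 1301 and 1203 CPM in cDC1s with WT medium, 2194, 2203 and 2166 CPM with BimS and 2319, 2341 and 2198 CPM with RIPK3. In cDC2s it had 2471, 2539 and 2256 CPM with WT, 3655, 3695 and 3555 CPM with BimS and 3616 and 3457 CPM with RIPK3 medium. The cDC1s with RIPK3 debris overlapped with cDC2s that had met no debris. The changes were 1.75-fold and 1.83-fold in cDC1s (log2 0.81 ± 0.0440 and 0.87 ± 0.0441) and 1.50-fold and 1.45-fold in cDC2s (0.58 ± 0.0751 and 0.54 ± 0.0828).

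Txn1 (ENSMUSG00000028367, chr4:57934208-57956424, minus strand) encodes the thioredoxin that Txnrd1 reduces. Its levels were 82.2, 85.3 and 87.8 CPM in cDC1s with WT medium, 118, 103 and 119 CPM with BimS and 106, 113 and 125 CPM with RIPK3. For cDC2s they were 75.5, 79.7 and 97.5 CPM, 112, 101 and 130 CPM, and 116 and 105 CPM. The debris samples of both cell types formed 1 overlapping range, and so did the WT samples. Log2 fold changes were 0.42 ± 0.0607 and 0.43 ± 0.0608 in cDC1s and 0.44 ± 0.103 and 0.38 ± 0.114 in cDC2s. In cDC2s the call for RIPK3 was lost on leaving out either RIPK3 sample (adjusted p = 0.371 and 0.141, edgeR), WT sample 1 or 2, or BimS sample 1, and that for BimS on leaving out WT sample 2 or BimS sample 3 (adjusted p = 0.0862 and 0.0690).

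Prdx1 (ENSMUSG00000028691, chr4:116532123-116558398), the thioredoxin-dependent peroxiredoxin of the cytosol, had 166, 162 and 174 CPM in cDC1s with WT medium, 751, 605 and 719 CPM with BimS and 850, 785 and 950 CPM with RIPK3. In cDC2s the values were 328, 351 and 451 CPM with WT, 1104, 1038 and 1445 CPM with BimS and 1179 and 1092 CPM with RIPK3. Every cDC1 group stood apart from the others and below the cDC2 debris groups, which overlapped with each other. Prdx1 was 4.13-fold and 5.15-fold higher with BimS and RIPK3 in cDC1s (log2 2.05 ± 0.0906 and 2.36 ± 0.0914), and 3.17-fold and 3.00-fold in cDC2s (1.66 ± 0.137 and 1.58 ± 0.148). Near-identical pseudogene copies in the count table had counts equal to 1.41% of those of Prdx1.

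Prdx6 (ENSMUSG00000026701, chr1:161051417-161079098, minus strand), the glutathione-dependent peroxiredoxin, had a wide gap between the cell types. Its levels were 32.4, 34.0 and 35.4 CPM in cDC1s with WT, 61.1, 57.7 and 54.5 CPM with BimS and 59.5, 64.5 and 64.2 CPM with RIPK3 medium. In cDC2s they were 101, 112 and 135 CPM, 201, 201 and 262 CPM, and 206 and 218 CPM. All cDC1 samples, with or without debris, were lower than all cDC2 samples. The log2 fold changes over WT were 0.77 ± 0.0632 and 0.89 ± 0.0631 in cDC1s and 0.93 ± 0.113 and 0.86 ± 0.124 in cDC2s.

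Nqo1 (ENSMUSG00000003849, chr8:108113835-108129934, minus strand), the quinone reductase, had the largest difference over WT of the 9 genes in cDC1s. It was measured at 6.53, 6.10 and 5.88 CPM in cDC1s with WT medium, 49.5, 36.8 and 44.2 CPM with BimS and 52.8, 42.4 and 44.7 CPM with RIPK3. The cDC2 samples had 48.7, 42.0 and 58.0 CPM with WT, 162, 132 and 169 CPM with BimS and 165 and 121 CPM with RIPK3 medium. Thus cDC1s with debris overlapped with cDC2s that had met live-cell medium. The differences were 7.04-fold and 7.56-fold in cDC1s (log2 2.82 ± 0.121 and 2.92 ± 0.121) and 3.11-fold and 2.86-fold in cDC2s (1.63 ± 0.142 and 1.52 ± 0.153).

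Cat (ENSMUSG00000027187, chr2:103284194-103316185, minus strand), the catalase gene, had 260, 250 and 271 CPM in cDC1s with WT medium, 846, 757 and 862 CPM with BimS and 927, 814 and 940 CPM with RIPK3. In cDC2s it had 196, 182 and 204 CPM with WT, 528, 460 and 536 CPM with BimS and 468 and 377 CPM with RIPK3. All cDC1 debris samples lay above all cDC2 debris samples, and all cDC1 WT samples above all cDC2 WT samples. Its fold changes were 3.16 and 3.43 in cDC1s (log2 1.66 ± 0.0565 and 1.78 ± 0.0567), and 2.62 and 2.16 in cDC2s (1.39 ± 0.0910 and 1.11 ± 0.0988).

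Of the superoxide dismutases, Sod1 (ENSMUSG00000022982, chr16:90017408-90027657) had the smallest log2 fold changes over WT of the 9 members in cDC1s. It had 593 to 615 CPM in cDC1s with WT, 678 to 725 CPM with BimS and 720 to 800 CPM with RIPK3 medium, and 455 to 565, 573 to 697 and 666 to 692 CPM in cDC2s. Its log2 fold changes were 0.20 ± 0.0467 and 0.32 ± 0.0467 in cDC1s and 0.31 ± 0.0914 and 0.44 ± 0.101 in cDC2s. The cDC2 call for BimS was lost on leaving out any 1 of 7 of the 8 cDC2 samples, with WT sample 3 as the exception (adjusted p = 0.0569 to 0.234 in those 7 fits, edgeR), and that for RIPK3 on leaving out WT sample 2 or either RIPK3 sample. Sod1 overlaps Scaf4 on the opposite strand, and since strand use in the counting is not given in the sources used here, reads of the overlap cannot be assigned to one gene with certainty. Scaf4 had 1905 to 2775 counts per sample, and the lowest Sod1 count was 8269.

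Sod2 (ENSMUSG00000006818, chr17:13224095-13259591), the mitochondrial enzyme, had 41.1, 40.6 and 37.4 CPM in cDC1s with WT, 56.9, 50.3 and 53.6 CPM with BimS and 54.7, 53.6 and 55.8 CPM with RIPK3 medium. The cDC2 values were 37.5, 37.3 and 40.4 CPM, 52.4, 49.2 and 54.8 CPM, and 54.8 and 55.4 CPM. All 6 WT samples formed a low range and all 11 debris samples a high one, whatever the cell type. Log2 fold changes were 0.43 ± 0.0626, 0.46 ± 0.0628, 0.44 ± 0.0856 and 0.51 ± 0.0949 for cDC1 BimS, cDC1 RIPK3, cDC2 BimS and cDC2 RIPK3.

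**Figure D2:**
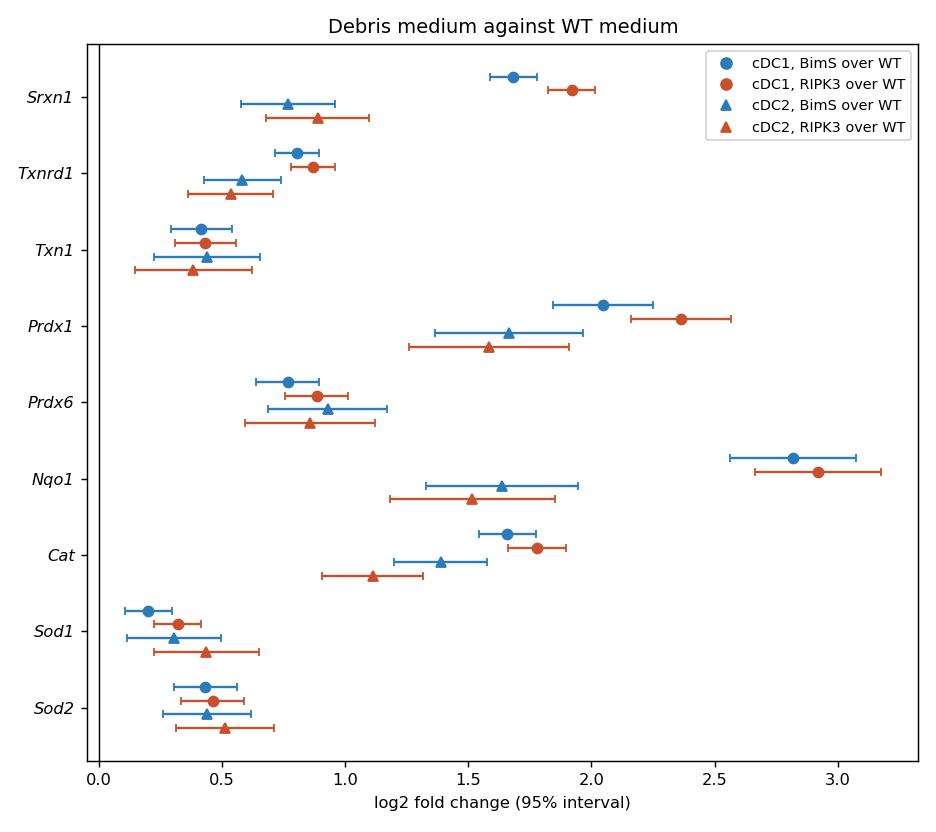
Log2 fold change of each gene over WT medium (horizontal axis) with 95% intervals from edgeR, for BimS (blue) and RIPK3 (red) in cDC1s (circles) and cDC2s (triangles). All 36 estimates lie above 0, from 0.20 for Sod1 in cDC1s with BimS to 2.92 for Nqo1 in cDC1s with RIPK3.

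Necroptotic and apoptotic debris were next set side by side. The difference over WT was known for each when the members were chosen, and WT samples enter the fit through its estimate of the spread, so the values are a description and nothing is read from the calls. In cDC1s, Srxn1 was the 1 member of 9 called. It was higher with RIPK3 than with BimS, by a log2 fold change of 0.24 ± 0.0456 (95% interval 0.14 to 0.33, edgeR), with 1309 to 1375 CPM in BimS and 1523 to 1667 CPM in RIPK3. By the same test 1.94% of the 19513 genes tested in cDC1s were higher with RIPK3 and 2.21% lower. Prdx1 was 0.32 higher with RIPK3 (interval 0.13 to 0.51) and its samples did not overlap, but it was not called. The groups did not overlap for 2 of 9 members, Srxn1 and Prdx1, and for 3743 of the 19513 genes tested, in either direction. Prdx1 was called without BimS sample 1, BimS sample 2 or RIPK3 sample 2, as were Sod1 without RIPK3 sample 1 and Cat without RIPK3 sample 2.

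The remaining 7 members had estimates of 0.02 (Txn1) to 0.12 in cDC1s, with interval bounds from -0.11 to 0.30. At an unadjusted p under 0.05, 4 members were higher with RIPK3, namely Srxn1, Prdx1, Sod1 and Cat, and none was lower. At that threshold 1429 of the 19513 genes tested were higher and 1601 lower. Same-numbered samples within a cell type deviated together, and a fit with the replicate number as a block called these 4 members with estimates of 0.24, 0.32, 0.12 and 0.12. The blocked fit called 1730 genes in all, compared with 810 without the block. In all 3 numbered pairs, Srxn1, Txnrd1, Prdx1, Nqo1 and Cat were higher in the RIPK3 sample than in the BimS sample. Of these, Txnrd1 and Nqo1 were not called with or without the block. Agreement of pairs was not counted over all genes, so nothing is read from it.

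In cDC2s, edgeR called 0 of 9 members between RIPK3 and BimS, and so did DESeq2 and limma, against 0.161% of 19239 genes called higher and 0.218% lower. Estimates ranged from -0.28 for Cat to 0.13 for Sod1, and the intervals together reached from -0.49 to 0.34. Cat was the 1 member with an unadjusted p under 0.05 (interval -0.49 to -0.07), where 780 of all 19239 genes tested were higher and 873 lower. Cat and Txnrd1 were lower with RIPK3 in both numbered pairs, whereas Srxn1, Txn1, Prdx1, Prdx6, Sod1 and Sod2 were higher in both, although the unblocked estimates of Txn1, Prdx1 and Prdx6 were below 0. Here too the agreement of pairs was not counted over all genes. With the replicate number as a block, 3 members were called, with Cat lower (-0.24) and Sod1 (0.22) and Srxn1 (0.20) higher in RIPK3. These blocked values rest on 2 RIPK3 samples, which share their numbers with 2 of the 3 BimS samples, and that fit called 2755 genes in all, compared with 73 without the block.

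**Figure D3:**
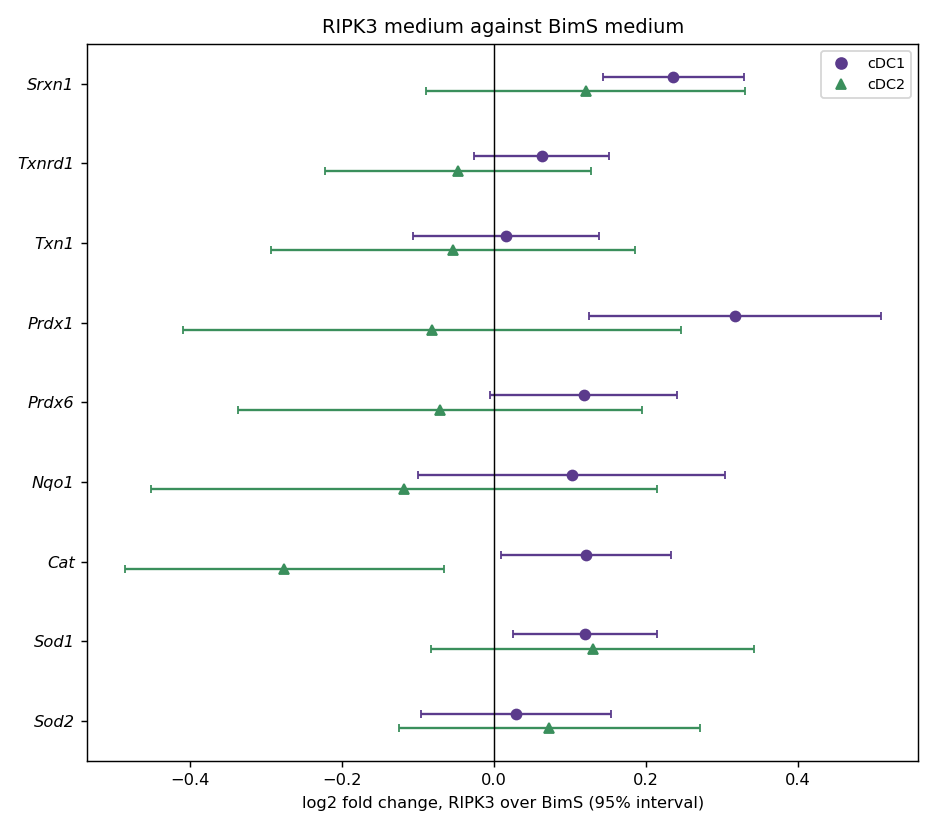
Log2 fold change of RIPK3 over BimS medium (horizontal axis) with 95% intervals from edgeR, in cDC1s (circles) and cDC2s (triangles). All 9 cDC1 estimates lie above 0, with Prdx1 (0.32) and Srxn1 (0.24) farthest from it, and the cDC2 estimates run from -0.28 for Cat to 0.13 for Sod1.

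The cell types without debris were set side by side in WT medium, in 1 fit of all 17 samples. These WT samples are the reference of the contrasts known when the members were chosen, so nothing is read from the calls. Of the 9 members, edgeR called 5 lower and 2 higher in cDC1s and did not call 2, while 22.5% of the 19082 genes tested were higher and 23.7% lower in cDC1s. The members' median log2 fold change of cDC1s over cDC2s was -0.95, compared with 0.00882 for all genes tested. Lower in cDC1s were the sulfiredoxin and thioredoxin reductase genes, both peroxiredoxin genes and the quinone reductase gene. Higher were catalase and Sod1.

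Nqo1 had the largest gap of the members, with a log2 difference of -3.01 ± 0.183 (SE), and cDC1s had 0.125 of the mean cDC2 level. Prdx6 followed at -1.77 ± 0.103. Srxn1 differed by -1.17 ± 0.0752, Prdx1 by -1.17 ± 0.138 and Txnrd1 by -0.95 ± 0.0580. In the other direction, Cat was 0.42 ± 0.0795 and Sod1 0.28 ± 0.0755 higher in cDC1s. The WT samples of the cell types did not overlap for any of these 7 genes, whereas 25.6% of all genes tested lay higher and 26.8% lower in every cDC1 WT sample. Txn1 differed by 0.02 (interval -0.18 to 0.21) and Sod2 by 0.05 (interval -0.10 to 0.19), which leaves room for differences of at most about 0.21 in log2 terms.

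Across media, the ratio of cDC1 to cDC2 mean levels moved toward 1 for some members and away from it for others. For Srxn1 the ratio was 0.445 in WT, 0.837 in BimS and 0.903 in RIPK3 medium, and for Nqo1 it was 0.125, 0.282 and 0.326. Prdx1 went from 0.445 to 0.579 and 0.759, and Txnrd1 from 0.517 to 0.602 and 0.646. Cat moved away from 1, from 1.34 in WT to 1.62 in BimS and 2.12 in RIPK3. Prdx6 (0.292, 0.261 and 0.296), Txn1 (1.01, 0.993 and 1.04), Sod1 (1.21, 1.13 and 1.11) and Sod2 (1.03, 1.03 and 0.993) kept close to their WT ratio.

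**Figure D4:**
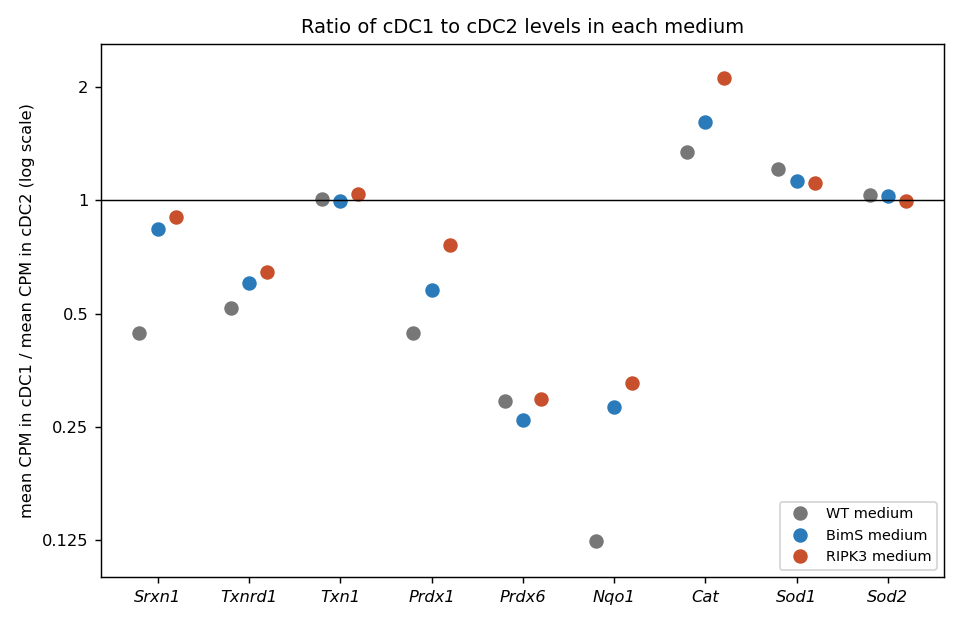
Mean level in cDC1s divided by mean level in cDC2s (vertical axis, log scale) for each gene in WT (gray), BimS (blue) and RIPK3 (red) medium; the line marks equal levels. Nqo1 rises from 0.125 to 0.326 and Srxn1 from 0.445 to 0.903, whereas Cat goes from 1.34 to 2.12. Means are unpaired, and cDC2s in RIPK3 medium have no sample 3.

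The difference over WT was also set side by side in the cell types, as an interaction, the log2 fold change over WT in cDC1s minus that in cDC2s. It is built from the contrasts that were known when the members were chosen, so it is given as a description and nothing is read from the calls. For BimS, Srxn1 had an interaction of 0.91 ± 0.105 (SE, interval 0.70 to 1.13) and Nqo1 of 1.18 ± 0.237 (interval 0.67 to 1.69). These 2 of 9 members were called by edgeR, where 0.561% of the 19082 genes tested had a called positive and 0.309% a called negative interaction. The Nqo1 call was lost in 9 of 17 fits that left out 1 sample, namely those without cDC1 WT sample 1, 2 or 3, cDC2 WT sample 1 or 3, cDC1 BimS sample 1 or 3, cDC2 BimS sample 1 or cDC1 RIPK3 sample 3. In those 9 fits the estimate was 1.05 to 1.21. Not called were Cat at 0.27 (interval 0.04 to 0.50), Txnrd1 at 0.22 (interval 0.05 to 0.39) and Prdx1 at 0.38 (interval -0.03 to 0.79).

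For RIPK3 the interaction was 1.02 ± 0.112 for Srxn1 (interval 0.79 to 1.25), 1.39 ± 0.249 for Nqo1 (interval 0.86 to 1.93) and 0.66 ± 0.119 for Cat (interval 0.41 to 0.90). These 3 of 9 members were called, against 0.66% of all genes tested with a called positive and 0.477% with a called negative interaction. For Cat the call was lost without cDC2 RIPK3 sample 2, the lower of the pair at 377 CPM, where the interaction was 0.51. Prdx1 had 0.77 (interval 0.33 to 1.21) and Txnrd1 0.32 (interval 0.15 to 0.50), and neither was called. Prdx1 was called without cDC2 BimS sample 3, and Txnrd1 without cDC2 WT sample 3.

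With the replicate number as a block within each cell type, an alternative added after the data had been seen, 5 members had a called interaction with BimS and 6 with RIPK3, where 957 and 964 of all genes tested were called, compared with 166 and 217 without it. Besides Srxn1, Nqo1 and Cat, these were Prdx1 (0.38 with BimS and 0.62 with RIPK3) and Txnrd1 (0.22 and 0.36). Sod1, the sixth with RIPK3, was on the negative side (-0.22). The unblocked intervals of Txn1, Prdx6 and Sod2 together reached from -0.46 to 0.33.

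**Figure D5:**
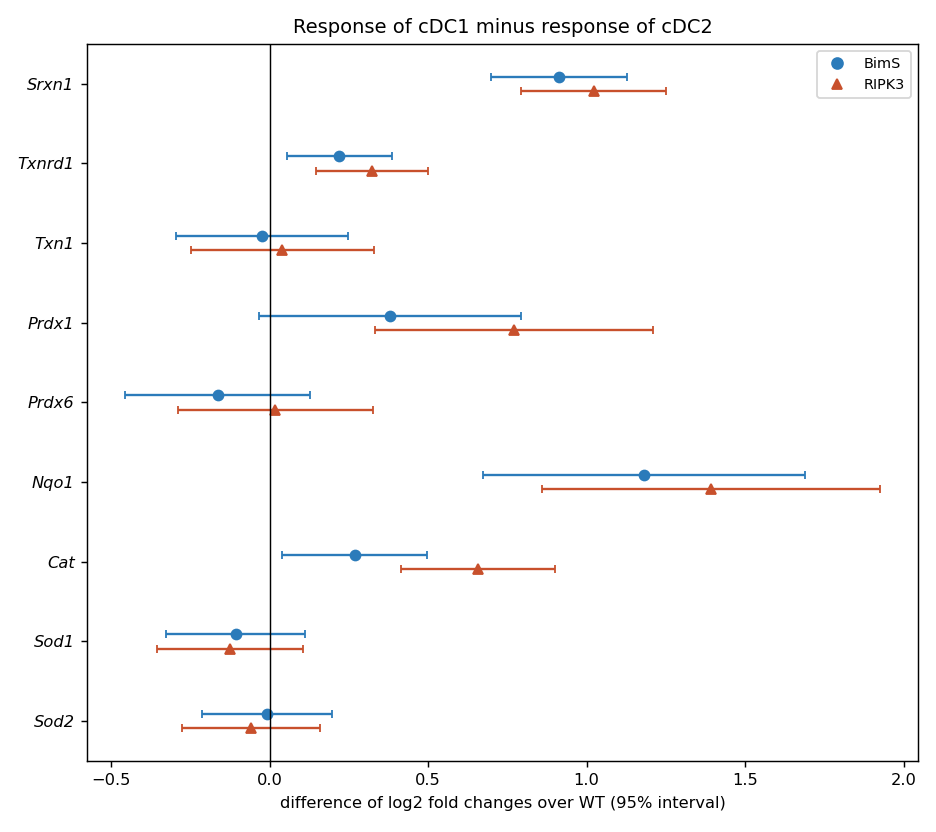
Interaction of each gene, the log2 fold change over WT in cDC1s minus that in cDC2s (horizontal axis), with 95% intervals from edgeR, for BimS (circles) and RIPK3 (triangles). Srxn1 (0.91 and 1.02), Nqo1 (1.18 and 1.39) and, for RIPK3, Cat (0.66) and Prdx1 (0.77) lie farthest to the right, the intervals of Cat with BimS and of Txnrd1 also lie above 0, and that of Prdx1 with BimS includes 0, whereas Txn1, Prdx6, Sod1 and Sod2 have intervals that include 0.

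Among replicates of 1 group, the members shared a highest or lowest sample in some groups and not in others. In cDC2s with WT medium sample 3 was the highest of 3 for 8 of 9 members, and in cDC2s with BimS medium sample 3 was again the highest for 8 of 9. Txnrd1 was the exception in both, being lowest in sample 3. In cDC1s with BimS medium, sample 2 was the lowest for 7 of 9 members. By contrast, in cDC1s with WT medium sample 3 was the highest for 5 members and the lowest for 4, in cDC1s with RIPK3 medium sample 3 was the highest for 6, and the cDC2 RIPK3 samples were the higher for 6 and 3 members. The ranks were not computed over all genes. After the mean of each cell type was subtracted, the 36 pairs of members had Pearson correlations of 0.739 (Txnrd1 with Sod1) to 0.989 over the 17 samples, with a median of 0.923. These points share their libraries and the contrast between media that was known when the members were chosen. The spread of correlations over other gene pairs was not worked out for comparison, and nothing is read from these.

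By the same measure, the 3 genes most like each member were taken from 7782 genes with an average log2 CPM of at least 3. Srxn1 was closest to Trem4 (r = 0.995), Blvrb (0.990), which encodes biliverdin reductase B, and Esd (0.989). For Txnrd1 they were Abcc1 (0.993), an exporter of glutathione conjugates, Rab10 (0.991) and Ube2o (0.989). Txn1 was most like the proteasome subunit genes Psmd14 (0.964) and Psmd7 (0.963), and Taldo1 (0.961) of the pentose phosphate pathway.

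Prdx1 was nearest to Gclm (0.994), the modifier subunit of glutamate-cysteine ligase, Pgd (0.992) of the pentose phosphate pathway and Htatip2 (0.992). Prdx6 was nearest to Taldo1 (0.989), Fermt3 (0.989) and Cmtm7 (0.988). Nqo1 was nearest to Pla2g7 (0.998), Cyb5a (0.991) and the glutathione reductase gene Gsr (0.990). Cat had Gca (0.993), Chpf2 (0.991) and Htatip2 (0.991), Sod1 had the glycolytic Pgk1 (0.975), Akr1a1 (0.971) and Psma2 (0.963), and Sod2 had Ftl1-ps1 (0.981), Cxcl3 (0.981) and the ferritin light chain gene Ftl1 (0.978). Ftl1-ps1 is a pseudogene of Ftl1 and may take its reads.

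Other genes of the thioredoxin, peroxiredoxin, glutaredoxin, sestrin and methionine sulfoxide reductase families were counted as a list, together with Nqo2, Sod3 and Ccs, which encodes the copper chaperone of Sod1. Of 30 such genes, chosen with earlier results of these data known, 29 were tested in cDC1s and 30 in cDC2s. With BimS, 4 were called higher and 5 lower in cDC1s (7.31% and 5.89% over all genes tested), and 2 and 2 in cDC2s (3.8% and 3.21%). With RIPK3, 4 were higher and 3 lower in cDC1s (8.34% and 8.19%), and 3 and 2 in cDC2s (3.93% and 3.28%). Their median log2 fold changes over WT were -0.05 and -0.04 in cDC1s and -0.11 and -0.03 in cDC2s. Among the peroxiredoxins, the mitochondrial Prdx3 was higher than WT in all 4 contrasts (log2 0.36, 0.45, 0.43 and 0.48), while its mean level went from 41.2 ± 0.871 (SD) to 52.8 ± 2.54 and 56.4 ± 4.38 CPM in cDC1s. Prdx2 lay on the other side, and was called lower with BimS in cDC1s (-0.24, adjusted p = 0.000989, edgeR). It was not called with RIPK3 in cDC1s (-0.02) or with BimS and RIPK3 in cDC2s (-0.29 and -0.11). Prdx4 and Prdx5 were not called in any of the 4 contrasts.

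Txnl1, a thioredoxin-like gene, was higher in cDC1s with BimS (0.30) and RIPK3 (0.39) and in cDC2s with RIPK3 (0.37, adjusted p = 0.0164). Glrx, which encodes glutaredoxin, was higher in cDC2s (0.74 and 0.97). Msrb3, a methionine sulfoxide reductase gene, was lower in each contrast (-0.40 and -0.61 in cDC1s, -0.45 and -0.53 in cDC2s). Txnip, whose protein binds and inhibits thioredoxin, was lower with BimS in cDC1s (-0.34), Msrb1 lower with RIPK3 in cDC1s (-0.37) and Txndc5 lower with RIPK3 in cDC1s (-0.25) and cDC2s (-0.49). Sesn2, a sestrin gene, was lower with BimS in cDC1s (-0.17) and cDC2s (-0.38) and higher with RIPK3 in cDC1s (0.15, adjusted p = 0.0374). The mitochondrial counterparts Txn2 and Txnrd2 were not called in any of the 4 contrasts. For Txn2 the estimates were -0.10 to 0.05 and for Txnrd2 -0.65 to -0.15.

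Between RIPK3 and BimS in cDC1s, edgeR called 3 of the 29 genes higher and 1 lower (1.94% and 2.21% over all genes tested). These were Sesn2 (0.33, adjusted p = 8.75e-05), Txnip (0.29, adjusted p = 0.00782), Prdx2 (0.22, adjusted p = 0.00885) and Msrb3 (-0.21, adjusted p = 0.0271). In cDC2s 0 of 30 were called by edgeR in this contrast. Between the cell types in WT medium, 7 of 30 were higher and 7 lower in cDC1s, near the shares of 22.5% and 23.7% over all genes tested, led by Prdx2 (1.09, adjusted p = 1.23e-11) and Sesn2 (0.72) on the higher side and Txnl1 (-0.46) and Txndc12 (-0.37) on the lower. Glrx was the 1 gene of the 30 with a called interaction, for RIPK3, and its difference was larger in cDC2s (-0.81, adjusted p = 0.027), the side on which Sod1 (-0.12) and Sod2 (-0.06) also lay among the members, although neither was called.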

How the data were processed

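The members and gene lists were chosen with earlier results of these data known. Raw counts per gene were deposited by the authors, who trimmed paired-end reads of poly-A enriched libraries, aligned them with STAR 2.7.10a to GRCm39 and counted genes of the Ensembl annotation. Whether counting used strand is not given in the sources used here. A second deposited table holds log2 values of counts scaled to 10000000 per sample, plus 1, and served as an alternative. Lines without an identifier (0.0258 to 0.0366% of counts) were left out, and 30854 of 31091 identifiers matched GENCODE M39, the source of positions. The sequences were read from the GRCm39 genome.

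For each fit, genes detected in 50% or more of its samples were tested with edgeR 4.0.16 (R 4.3.3), using TMM scaling and the robust quasi-likelihood test, with Benjamini-Hochberg adjustment over all genes tested and a threshold of 0.05. This gave 19513 genes in the fit of cDC1s, 19239 in that of cDC2s and 19082 in the fit of all 17 samples, which served the comparison of cell types and the interactions. Intervals are 95% intervals of the fitted log2 fold change. Levels are CPM with TMM factors over all samples. For the members, all comparisons are given as a description. All 9 members were named in each comparison. From the list of 30 related genes, the 2 largest rises and falls among called genes with an average log2 CPM of at least 3 were named. Prdx2, Prdx3, Prdx4, Prdx5, Txnl1, Txndc5, Sesn2, Msrb3, Txn2 and Txnrd2 were also followed in other contrasts after their values were seen.

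Alternatives were DESeq2 1.42.0, RLE size factors, other filters, limma 3.58.1 on log2(count + 1) or on the deposited log2 values, the replicate number as a block and leaving out each sample. Replicate numbers come from the labels. Within a cell type, all 16 pairs of same-numbered samples had deviations from the group means that correlated above 0.1 (median r = 0.355), compared with 4 of 32 pairs with different numbers, so the numbers were taken to pair samples within a cell type. Across cell types 19 of 24 pairs passed. On simulated counts, 200 of 200 genes changed by 1 on the log2 scale were recovered in the comparison of BimS with WT in cDC1s, 200 of 200 in that in cDC2s and 193 of 200 in the RIPK3 interaction. In these simulations 8.68%, 11.5% and 6.76% of the calls were false. The changed genes were drawn from those above a floor of expression, and the simulated samples were not paired. Smaller changes were not simulated, so the recovery of small differences is not known from them.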

Additional observations from a re-analysis of the deposited data

Results flagged for a closer look

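The difference over WT was larger in cDC1s than in cDC2s by the interaction fit for 3 members, which were chosen with the differences over WT known, so these values are a description. For Srxn1 the excess in log2 fold change was 0.91 with BimS and 1.02 with RIPK3, and it was called in every fit run. For Nqo1 it was 1.18 with BimS, a call lost in 9 of 17 fits that left out 1 sample, and 1.39 with RIPK3. For Cat it was 0.66 with RIPK3, a call lost without cDC2 RIPK3 sample 2 (0.51, adjusted p = 0.0715, edgeR). With the replicate block within each cell type, 5 members were called for BimS and 6 for RIPK3, where 957 and 964 of all genes tested were called. Nqo1 had the fewest counts behind it, 120 to 131 per library in cDC1s with WT medium. Samples that stand far from their group could not be looked for, since no group had more than 3 samples.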

How the results depend on the processing

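Depth was even (16095159 to 21645289 counts), and small differences are limited by the spread of 2 or 3 samples per group. The 7 differences between cell types in WT medium and both Srxn1 interactions kept their direction and call in every fit run. Of the counts of members called, that for RIPK3 against BimS in cDC1s was 1 and became 2 (Srxn1 and Prdx1) with DESeq2, with the filterByExpr filter and with no filter, 0 with limma on log2(count + 1) and 4 with the replicate block. Over all genes, 810 were called in the main fit, 780 with DESeq2, 804 of 13243 with filterByExpr and 1047 of 28804 with no filter. That limma fit called 403 and the block 1730. The member count for RIPK3 against BimS in cDC2s was 0 and became 3 with the replicate block, while all genes called went from 73 to 2755. For RIPK3 against WT in cDC2s the member count was 9 and became 5 with limma on log2(count + 1), while all genes called went from 1387 to 1600. For the BimS interaction it was 2, gained Cat with the replicate block and became 5 with the block within each cell type. All genes called in these fits were 166, 443 and 957. For the RIPK3 interaction it was 3 and became 5 with DESeq2, 5 with the replicate block and 6 with the block within each cell type. All genes called there were 217, 305, 449 and 964. The RIPK3 interaction also gained 1 member with no filter and with limma on log2(count + 1) or on the deposited values. Those 3 fits called 371, 109 and 236 of all genes. Single calls over WT were also lost. With limma on log2(count + 1) these were Sod1 with BimS and RIPK3 in cDC1s (adjusted p = 0.411 and 0.173), Txn1, Sod1 and Sod2 with BimS in cDC2s, and Txnrd1, Txn1, Sod1 and Sod2 with RIPK3 in cDC2s. With limma on the deposited values, Txn1 and Sod1 were lost for both media in cDC2s (adjusted p = 0.0533 to 0.193), and with the filterByExpr filter Sod1 for BimS (0.0558) and Txn1 for RIPK3 (0.0565). The block changed no call in the comparison of cell types. Leaving out 1 sample gave 1 to 3 members for RIPK3 against BimS in cDC1s, 0 in cDC2s, 1 to 2 for the BimS and 2 to 4 for the RIPK3 interaction, 7 for the cell types, 9 in cDC1s and 7 to 9 in cDC2s for debris against WT. Where 1 cDC2 RIPK3 sample remained, it was assumed to vary like the other groups.

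Signs turned only in estimates that were not called, and the cause was not tested. Limma on log2(count + 1) is not scaled, and it moved the median of all genes by -0.083 for RIPK3 against BimS in cDC1s and -0.094 in cDC2s. The median moved by -0.12 for RIPK3 against WT in cDC1s, -0.15 in cDC2s and 0.15 between cell types, and by 0.031 and 0.051 for the BimS and RIPK3 interactions. In that fit RIPK3 against BimS became -0.021 for Txnrd1, -0.067 for Txn1 and -0.053 for Sod2 in cDC1s and -0.032 for Sod2 in cDC2s. The BimS interaction became 0.00733 for Txn1 and 0.027 for Sod2, and the RIPK3 interaction 0.00603 for Sod2. With limma on the deposited log2 values, which moved its median by 0.025, the BimS interaction became 0.00259 for Txn1 and 0.022 for Sod2. With the replicate block, RIPK3 against BimS in cDC2s became 0.049 for Txn1, 0.069 for Prdx1 and 0.057 for Prdx6, and the RIPK3 interaction -0.034 for Txn1 and -0.041 for Prdx6, or -0.072 and -0.11 with the block within each cell type. Leaving out 1 sample gave, for RIPK3 against BimS, -0.047 to 0.072 for Txn1, -0.0021 to 0.21 for Nqo1 and -0.011 to 0.075 for Sod2 in cDC1s, and -0.13 to 0.042 for Txn1, -0.17 to 0.073 for Prdx1, -0.14 to 0.065 for Prdx6 and -0.35 to 0.086 for Nqo1 in cDC2s. It gave -0.054 to 0.14 for Txn1 between cell types, -0.15 to 0.068 for Txn1 and -0.065 to 0.029 for Sod2 in the BimS interaction, and -0.081 to 0.11 for Txn1 and -0.11 to 0.11 for Prdx6 in the RIPK3 interaction.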
